A study of Homo sapiens with 10 samples.

Results

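The genes described here are the heterogeneous nuclear ribonucleoprotein (hnRNP) genes of HEK293FT, a human embryonic kidney cell line, taken as every row of the deposited expression table named SRSF with a number, HNRNP at its start, or HNRPLL. The rule found 19 of the 19301 named features. All 19 were hnRNP features and 0 were named SRSF, because the table names the serine/arginine-rich (SR) genes by older SFRS symbols. The 12 SR genes recognised through RefSeq synonyms, in 13 features, are therefore used as the set to compare with. Values are FPKM (fragment numbers set relative to transcript length and to the size of the library), so levels of different genes are compared per length.

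All cells carried lentivirally integrated Gaussia and Cypridina luciferase reporters and received plasmid for dCas9-VP64, a cleavage-dead Cas9 fused to a transcriptional activator. The groups P4P6, INT, TOP1 and sgRNA also received plasmid for a guide RNA of that name, driven by the U6 promoter and directed at the Gaussia reporter, and CasVP received no guide. Each well of 125000 cells was given 59 ng of dCas9-VP64 plasmid, 679.4 ng of carrier and, where a guide was used, 11.6 ng of guide plasmid, 1 day after plating. Polyadenylated RNA was taken 3 days later, in 2 libraries per group and 10 in all. The labels name the modified guides without describing them; TOP1 always means the guide here. Transfection was transient and the share of cells that took up plasmid is not given in the sources used here. No label states that replicate libraries stem from separate cultures, and the p-values cover the spread between these libraries only. The columns number the libraries of a group 0 and 1, and these numbers are used here.

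Of 8 genes typical of this line, 7 were above 1 FPKM in every library, and the summed level of the list was 108 to 113 FPKM in P4P6, 115 to 116 in INT, 117 to 123 in TOP1, 117 in both sgRNA libraries and 112 to 115 in CasVP. Of the 9 markers found for blood, endothelial, liver, fibroblast and muscle cells, 8 were under 1 FPKM in every library and COL1A1 lay between 0.98 and 1.94. Their summed level was 2.29 to 2.36 FPKM in P4P6, 2.26 to 2.47 in INT, 1.63 to 2.03 in TOP1, 2.03 to 2.11 in sgRNA and 2.16 to 2.34 in CasVP. Sequencing depth, estimated from the steps between low values and given relative to CasVP replicate 0, was 0.69 and 0.80 in P4P6, 0.91 and 0.82 in INT, 1.02 and 0.74 in TOP1, 0.71 and 0.94 in sgRNA and 1 and 0.88 in CasVP. The read totals are unknown.

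hnRNP proteins bind nascent transcripts in the nucleus, package them and often keep splice sites or exons from being used, while SR proteins bind exonic enhancers and recruit the spliceosome. Both kinds of protein frequently compete on the same transcript, and their ratio shifts alternative splicing. Many hnRNP proteins also shuttle to the cytoplasm and act in RNA export, stability and translation.

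Several members have near-identical copies in the genome, and how fragments were shared out among copies is not given in the sources used here. Chosen pairs of related members are shown because alike coding sequences limit which gene a fragment can be assigned to. Copies that are not members are not printed. HNRNPA1 and HNRNPA1L2, a copy of it on another chromosome, differ at 15 of 960 coding bases (98.4% identity). HNRNPC and HNRNPCL1 differ at 47 of 879 bases (94.7%) and share a row of the table, beside a row of HNRNPCL1 alone. HNRNPH1 and HNRNPH2 differ at 167 of 1347 bases (87.6%). In each pair below, 60 bases of coding exon from the GENCODE 29 annotation of GRCh38 are printed on the gene's strand, with the bases that differ between the pair in capitals. The stretches are chr12:54282578-54282637 (plus strand) and chr13:52643081-52643140 (plus), chr14:21234113-21234172 (minus) and chr1:12848209-12848268 (minus), then chr5:179616154-179616213 (minus) and chrX:101413201-101413260 (plus).
HNRNPA1: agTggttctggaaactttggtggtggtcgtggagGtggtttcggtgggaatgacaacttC
HNRNPA1L2: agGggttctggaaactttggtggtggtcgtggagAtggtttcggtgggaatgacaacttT
HNRNPC: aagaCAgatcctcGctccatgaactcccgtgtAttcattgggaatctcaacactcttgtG
HNRNPCL1: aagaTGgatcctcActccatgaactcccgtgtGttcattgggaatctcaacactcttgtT
HNRNPH1: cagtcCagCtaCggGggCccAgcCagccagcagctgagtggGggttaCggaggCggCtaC
HNRNPH2: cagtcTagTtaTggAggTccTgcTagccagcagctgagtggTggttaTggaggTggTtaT

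The stretches of the first pair hold 3 differences, those of the second 5 and those of the third 12. In each pair this is more per base than over the whole coding sequence, so the stretches understate how alike the genes are. Over whole coding sequences, 83.2% of the 50-base windows of HNRNPA1 occurred in an annotated transcript of another gene elsewhere, most often the copy HNRNPA1P7 (58.5%). The share was 89.8% for HNRNPA3, 53.5% for HNRNPC, 51.4% for HNRNPA1L2, 28.6% for HNRNPK and 8.23% for HNRNPR. It was 0% for HNRNPA0, HNRNPA2B1, HNRNPF, HNRNPH3, HNRNPM, HNRNPUL1 and HNRPLL. The values of HNRNPA1, HNRNPA1L2, HNRNPA3, HNRNPC and HNRNPK are thus uncertain in how they split between gene and copy. The coding sequences of the members with 0% shared no window of this length with an annotated transcript elsewhere. Untranslated parts of the members and unannotated copies were not searched, so 0% does not show that a value is free of copies.

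The promoters of 3 members follow, each as the 250 bases before the transcript start in RefSeq (GRCh38.p14). HNRNPC and HNRNPH2 were chosen as members called lower in P4P6 relative to TOP1, and HNRNPM for the highest estimate in that comparison. Capitals mark matches, on either strand, to the motif CCAAT, to the TATA-type motif TATAAA, to the GC box GGGCGG and to the ETS-type motif CCGGAAG, none of which contains another. The windows are chr14:21269443-21269692 (minus strand), chrX:101407972-101408221 (plus) and chr19:8444725-8444974 (plus).
HNRNPC: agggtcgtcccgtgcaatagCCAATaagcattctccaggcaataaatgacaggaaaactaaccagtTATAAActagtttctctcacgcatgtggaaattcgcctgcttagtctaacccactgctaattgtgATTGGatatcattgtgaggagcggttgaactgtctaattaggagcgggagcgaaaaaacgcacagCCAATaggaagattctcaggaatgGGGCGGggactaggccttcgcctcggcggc
HNRNPH2: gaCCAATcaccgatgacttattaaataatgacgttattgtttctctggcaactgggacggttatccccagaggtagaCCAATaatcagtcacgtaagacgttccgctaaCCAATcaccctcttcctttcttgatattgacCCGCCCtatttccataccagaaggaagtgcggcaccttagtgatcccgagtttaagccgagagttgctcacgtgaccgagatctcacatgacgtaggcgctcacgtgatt
HNRNPM: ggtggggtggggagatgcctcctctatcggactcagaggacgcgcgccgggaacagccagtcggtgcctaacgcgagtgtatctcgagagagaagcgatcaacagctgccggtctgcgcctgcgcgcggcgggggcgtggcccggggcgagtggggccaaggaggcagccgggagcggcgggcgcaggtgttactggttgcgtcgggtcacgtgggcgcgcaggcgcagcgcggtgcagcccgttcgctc

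Promoters were found for 18 of the 19 member genes, 27 promoters in all, with none for HNRNPA1. CCAAT or its complement ATTGG was in 55.6% of the member promoters, against 32% of all 35116 promoters of this length, and GGGCGG in 63% against 42.6%. The TATA-type motif TATAAA was in 11.1% against 10.7%, and CCGGAAG in 11.1% against 8.52%. GC content had a median of 65.6% in the member promoters, against 58% in all. CCAAT was in any promoter of 6 of the 6 matched genes called lower with P4P6 and of 7 of the 11 other tested genes. For GGGCGG the counts were 5 of 6 and 9 of 11. For TATAAA they were 1 of 6 and 2 of 11, as they were for CCGGAAG. Some genes have several promoters, and the differences between these counts were not tested. HNRNPM had no match to these motifs, while HNRNPA0 and HNRNPUL1, also highest in P4P6 by group mean, matched both CCAAT and GGGCGG. These are matches of letters, and nothing about a factor was measured.

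The hnRNP genes were expressed at high levels that varied little. Of the 19 members, 18 had a mean of at least 1 FPKM and were tested, and HNRNPCL1 alone was at 0 in 9 libraries and at 0.04 FPKM in sgRNA replicate 1. A mean of at least 100 FPKM was reached by 15 of the 18, while 759 of all 11574 tested features reached it. Over the 10 libraries the ratio of the highest to the lowest library ran from 1.09 for HNRNPUL1 to 1.28 for HNRNPA1. Together the members made up 0.853 and 0.875% of the summed FPKM of named features in P4P6, 0.869 and 0.855% in INT, 0.861 and 0.846% in TOP1, 0.846 and 0.825% in sgRNA, and 0.827 and 0.821% in CasVP. Each guide library except sgRNA replicate 1 had a larger share than both CasVP libraries.

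Among the A/B-type proteins, which carry paired RNA recognition motifs and a glycine-rich tail, HNRNPA1 was the most abundant member. This repressor of splice sites averaged 1094 FPKM and lay above every other member in every library. HNRNPA2B1, its close relative known for RNA trafficking, averaged 481 FPKM. HNRNPA3 averaged 302 FPKM and HNRNPAB 206 FPKM. HNRNPD, also called AUF1, which binds AU-rich elements and speeds mRNA decay, averaged 189 FPKM. HNRNPA0, another binder of AU-rich elements, averaged 117 FPKM, and the copy HNRNPA1L2 averaged 24.8 FPKM.

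Of the other classes, HNRNPK, whose KH domains bind cytosine-rich RNA, averaged 439.6 FPKM. The shared row of HNRNPC and HNRNPCL1 averaged 404 FPKM, and HNRNPC forms tetramers on uridine tracts of pre-mRNA. In the group that binds runs of guanines, HNRNPH1 averaged 413 FPKM, HNRNPH3 139 FPKM, HNRNPF 129.7 FPKM and HNRNPH2 72.04 FPKM. HNRNPU, also known as scaffold attachment factor A, averaged 338 FPKM and its relative HNRNPUL1 averaged 122 FPKM. HNRNPM, a regulator of alternative exons, averaged 169.5 FPKM and HNRNPR, a relative of SYNCRIP, averaged 159 FPKM. HNRPLL, which in T cells controls exons of the phosphatase PTPRC, was the lowest of the 18 at 20.01 FPKM.

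The library ranges of HNRNPA1, at 955 to 1224 FPKM, and of HNRNPA2B1, at 444 to 506 FPKM, did not meet. HNRNPH2 at 64.2 to 77.4 FPKM stood clear of the members above and below it, as did HNRNPA1L2 at 22.4 to 27.0 FPKM. HNRPLL spanned 18.3 to 21.8 FPKM. Among HNRNPA2B1, HNRNPK, HNRNPH1 and HNRNPC, and among HNRNPH3, HNRNPF, HNRNPUL1 and HNRNPA0, neighbouring ranges overlapped. Compared within each library, HNRNPA2B1 was above HNRNPK and HNRNPH3 above HNRNPF in every one. The order of the other neighbours in these sets changed between libraries.

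**Figure D1:**
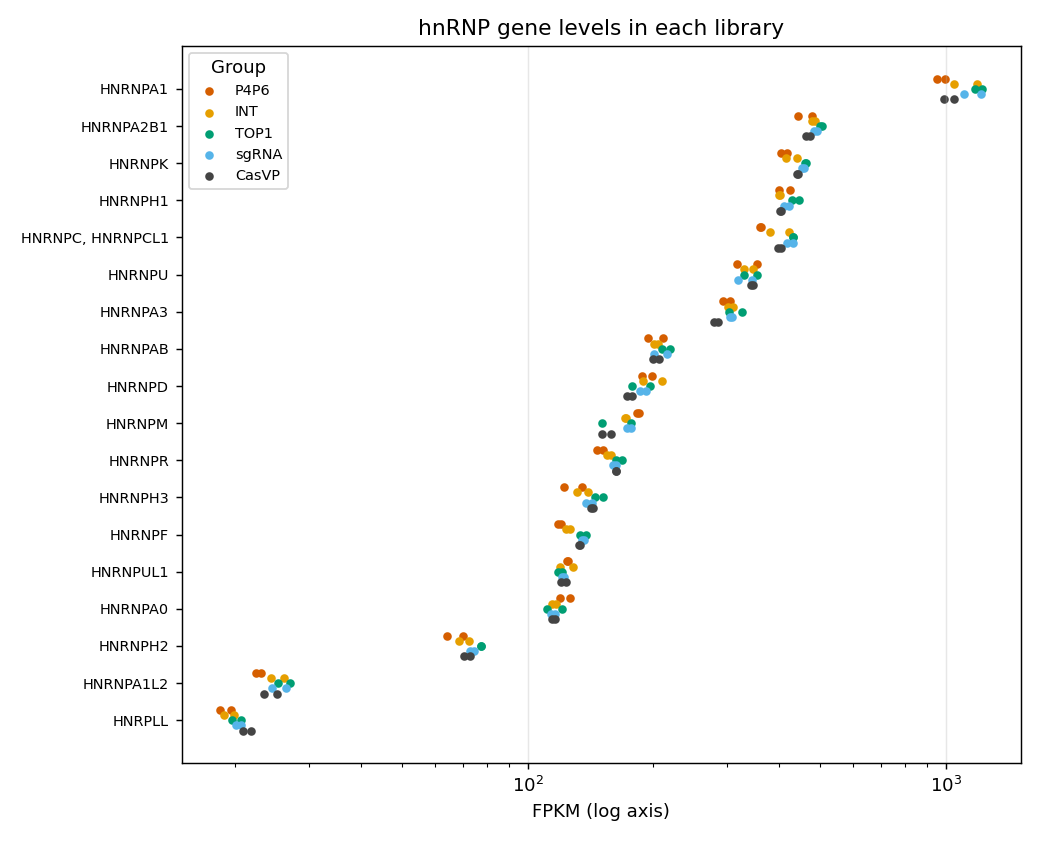
Level of each of the 18 tested hnRNP members in FPKM (log axis), with 1 point per library and a colour per group, ordered by mean. HNRNPA1 sits alone at 955 to 1224 FPKM, 15 members average at least 100 FPKM, and the points of any member span at most a 1.28-fold range.

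The levels of many members in the P4P6 libraries were the lowest of the 5 groups. By group mean, 11 of 18 members were lowest in P4P6 and 12 of 18 were highest in TOP1. Over all tested features, 36.3% were lowest in P4P6 and 25.1% were highest in TOP1. Among the 759 features averaging at least 100 FPKM, a level band chosen after the values were seen, 77.5% were lowest in P4P6 and 54.4% highest in TOP1. HNRNPM, HNRNPUL1 and HNRNPA0 were highest in P4P6. Of the others, HNRNPH1 was lowest in INT, HNRNPU in sgRNA, and HNRNPA3 and HNRNPD in CasVP. The share of all members in the summed FPKM of named features was not lowest in P4P6. At 0.853 and 0.875% it overlapped that in TOP1 (0.861 and 0.846%) and lay above that in sgRNA (0.846 and 0.825%).

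**Figure D2:**
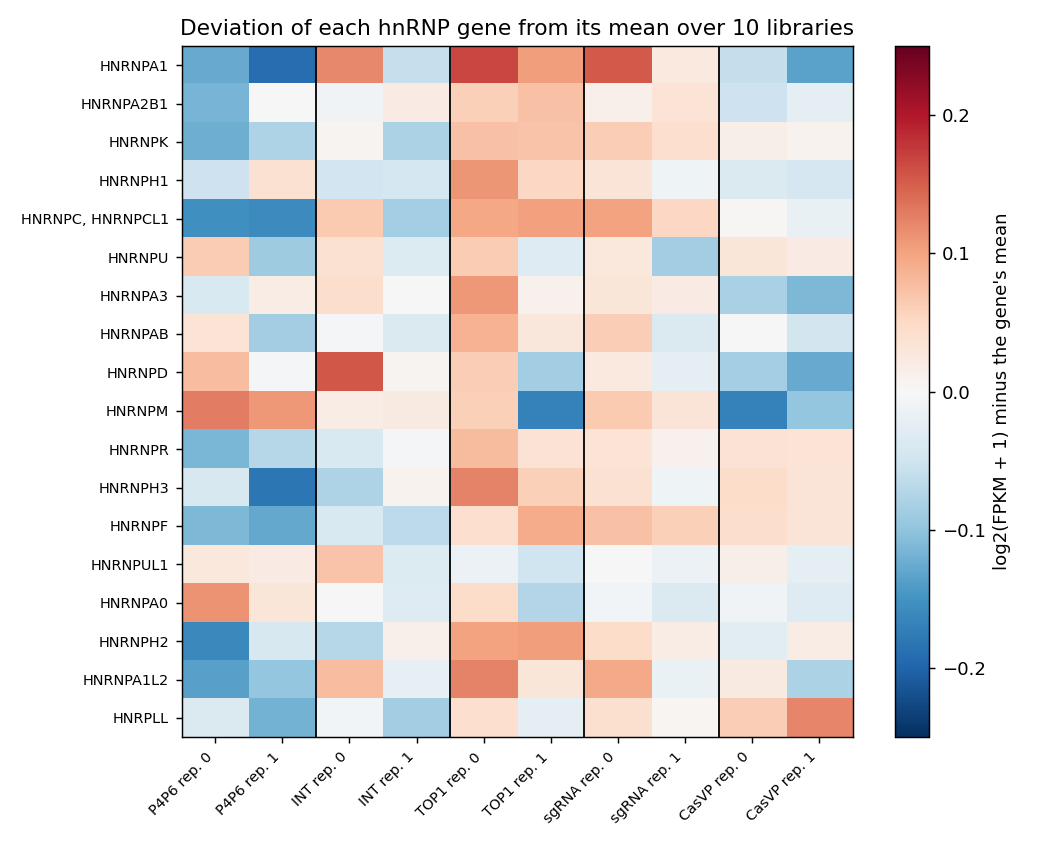
Deviation of each tested hnRNP member from its own mean over the 10 libraries, in log2(FPKM + 1), with members in rows by level and libraries in columns. Most rows are blue (below the mean) in the 2 P4P6 columns and red in the 2 TOP1 columns. HNRNPM, HNRNPA0 and HNRNPUL1 are above their own mean in both P4P6 columns.

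The comparison of P4P6 with TOP1, between cells given different modified guides, gave the most calls. Differences were tested with limma on log2(FPKM + 1), adjusted over all 11574 features by the Benjamini-Hochberg method at 0.05. In it 7 of 18 members fell and 0 rose, while 20% of all tested features were called, 11.4% lower and 8.61% higher. Under quantile normalization the split was instead 0 lower and 4 higher. The members that fell were HNRNPA1, HNRNPC, HNRNPF, HNRNPH2, HNRNPH3, HNRNPK and HNRNPR, with changes of -9.99 to -18.5% in mean FPKM. In whole-culture RNA, fewer cells with a transcript and less of it per cell cannot be told apart.

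HNRNPA1 was at 999 and 955 FPKM in P4P6, against 1224 and 1172 FPKM in TOP1. Both P4P6 libraries were below both TOP1 libraries. The log2 difference was -0.29 ± 0.07 (SE; 95% confidence interval -0.45 to -0.14; limma adjusted p = 0.0195), and this was the largest fall among the members. HNRNPA1L2, the copy that shares many of its bases, was at 22.4 and 23.1 FPKM in P4P6, against 27.0 and 25.3 FPKM in TOP1. Its difference of -0.19 ± 0.06 (SE) missed the threshold (limma adjusted p = 0.0549). Over the 10 libraries the levels of HNRNPA1 and HNRNPA1L2 correlated at r = 0.92, a description in which the libraries, depth and shared sequence are common to both.

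HNRNPC, in the row it shares with HNRNPCL1, was at 362 and 360.5 FPKM in P4P6, against 430.3 and 432 FPKM in TOP1. The libraries of each group lay close together and the groups did not overlap. Its log2 difference was -0.26 ± 0.05 (SE; interval -0.37 to -0.14; limma adjusted p = 0.0137). HNRNPK was at 403 and 416 FPKM in P4P6, against 462 and 461 FPKM in TOP1. It differed by -0.17 ± 0.04 (SE; interval -0.27 to -0.07; limma adjusted p = 0.0259), again with no overlap between groups, but its estimate under quantile normalization was 0.0056. HNRNPC and HNRNPK were the most alike of the 153 pairs of members over the 10 libraries (r = 0.95), by a measure that also carries the depth common to a library.

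Of the 4 binders of guanine runs, 3 were called. HNRNPF was at 119.8 and 118 FPKM in P4P6, against 133 and 138 FPKM in TOP1. Its log2 difference was -0.19 ± 0.04 (SE; interval -0.28 to -0.10; limma adjusted p = 0.0150). No annotated transcript of another gene elsewhere shares a 50-base coding window with HNRNPF. HNRNPH2 was at 64.2 and 70.0 FPKM in P4P6, against 77.2 and 77.4 FPKM in TOP1, and HNRNPH3 at 135 and 122 FPKM in P4P6, against 151 and 145 FPKM in TOP1. In neither gene did the groups overlap, and the log2 differences were -0.20 ± 0.05 for HNRNPH2 (SE; interval -0.32 to -0.09; limma adjusted p = 0.0243) and -0.20 ± 0.06 for HNRNPH3 (SE; interval -0.33 to -0.08; limma adjusted p = 0.0308). HNRNPH1, at 399 and 424 FPKM in P4P6 and 446 and 428 FPKM in TOP1, was below in both libraries by a narrow margin and was not called (-0.09 ± 0.05, SE; limma adjusted p = 0.199).

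HNRNPR was at 147 and 151 FPKM in P4P6, against 168 and 163 FPKM in TOP1. The difference was -0.15 ± 0.04 (SE; interval -0.24 to -0.06; limma adjusted p = 0.0298), with no overlap. HNRNPM had the highest estimate of the 18, with 185 and 182 FPKM in P4P6, against 176 and 150.4 FPKM in TOP1. Both P4P6 libraries were above both TOP1 libraries, which lay far apart from each other. Its difference of 0.17 ± 0.07 (SE; interval 0.03 to 0.32) missed the threshold (limma adjusted p = 0.0898). HNRNPA0, HNRNPD and HNRNPUL1 also had estimates above 0, between 0.05 and 0.09, and were not called. In all, 11 members had both P4P6 libraries below both TOP1 libraries and 2 had them above. Over all features the shares were 32.5% below and 27.5% above.

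The shift of the members was not larger than that of other highly expressed features. The median log2 difference of the 18 members was -0.11, against -0.01 over all tested features and -0.19 over the features averaging at least 100 FPKM. Of the 15 members in that band, 6 were called lower (40%), against 53.9% of the 759 features in it. The median over those 15 members was -0.09. Relative depth was 0.69 and 0.80 in P4P6, against 1.02 and 0.74 in TOP1, and the part of depth and of level in the result was not tested. A scaling that gives every library the same distribution of values gave another split. Under quantile normalization the 4 members called higher were HNRNPM, HNRNPUL1, HNRNPD and HNRNPA0, with 3.59% of all features called lower and 6.63% higher, and the members' median was 0.02.

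**Figure D3:**
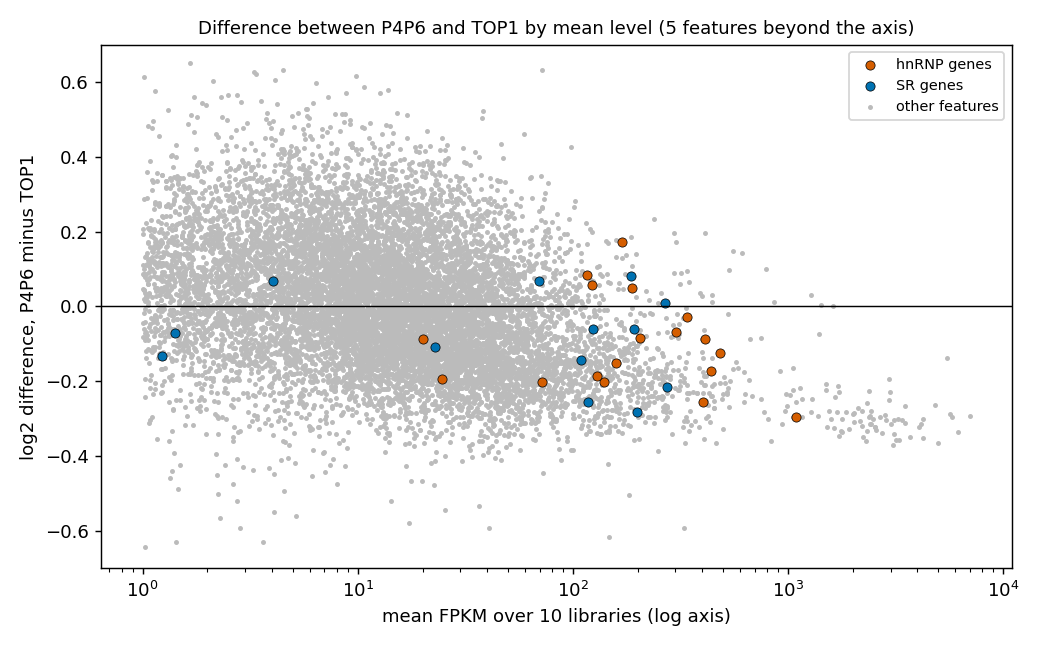
Log2 difference between P4P6 and TOP1 (P4P6 minus TOP1) against mean FPKM (log axis), with hnRNP members in orange, SR genes in blue and the other tested features in grey. Differences run lower at high levels, where the median of features averaging at least 100 FPKM is -0.19 and that of the 15 hnRNP members among them is -0.09.

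Against the unmodified guide, fewer members changed. In P4P6 relative to sgRNA, 3 of 18 members fell and 0 rose, while 11.5% of all tested features were called, 7.17% lower and 4.33% higher. The 3 were HNRNPA1, HNRNPC and HNRNPF, which were also called against TOP1, in a comparison that shares the P4P6 libraries. HNRNPF was at 119.8 and 118 FPKM in P4P6, against 136 and 135 FPKM in sgRNA (log2 difference -0.19 ± 0.04, SE; interval -0.28 to -0.10; limma adjusted p = 0.0251). HNRNPC was at 362 and 360.5 FPKM in P4P6, against 432 and 417 FPKM in sgRNA (-0.23 ± 0.05, SE; interval -0.35 to -0.12; limma adjusted p = 0.0284). The groups did not overlap in either gene.

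HNRNPA1 was at 999 and 955 FPKM in P4P6, against 1212 and 1109 FPKM in sgRNA. It fell by 15.8% with no overlap, and its adjusted p lay at the threshold (log2 difference -0.25 ± 0.07, SE; interval -0.40 to -0.09; limma adjusted p = 0.0490). HNRNPK missed the threshold at -0.15 ± 0.04 (SE; limma adjusted p = 0.0551). HNRNPA0 had the highest estimate, with 126 and 119 FPKM in P4P6 against 116 and 114 FPKM in sgRNA, and was not called (0.09 ± 0.05, SE; interval -0.02 to 0.21; limma adjusted p = 0.243). Both P4P6 libraries were below both sgRNA libraries in 11 members and above them in 3, against 30.6% and 25.9% of all features.

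The median of the members in this contrast was -0.09, against -0.01 over all features and -0.18 over features averaging at least 100 FPKM. In that band 3 of 15 members were called lower (20%), against 42.6% of all its features. With quantile normalization 0 members were called lower and 1, HNRNPA0, was called higher (limma adjusted p = 0.0335), with 0.778% of features called lower and 2.57% higher. Without sgRNA replicate 0, sgRNA replicate 1, P4P6 replicate 1 or either CasVP library, 0 members passed. Against TOP1 the count was 1, with HNRNPM higher, without TOP1 replicate 0, and 0 without TOP1 replicate 1. It was 4, all lower, without P4P6 replicate 0 or without either CasVP library. With only the groups compared in the fit, 0 members passed in either contrast.

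**Figure D4:**
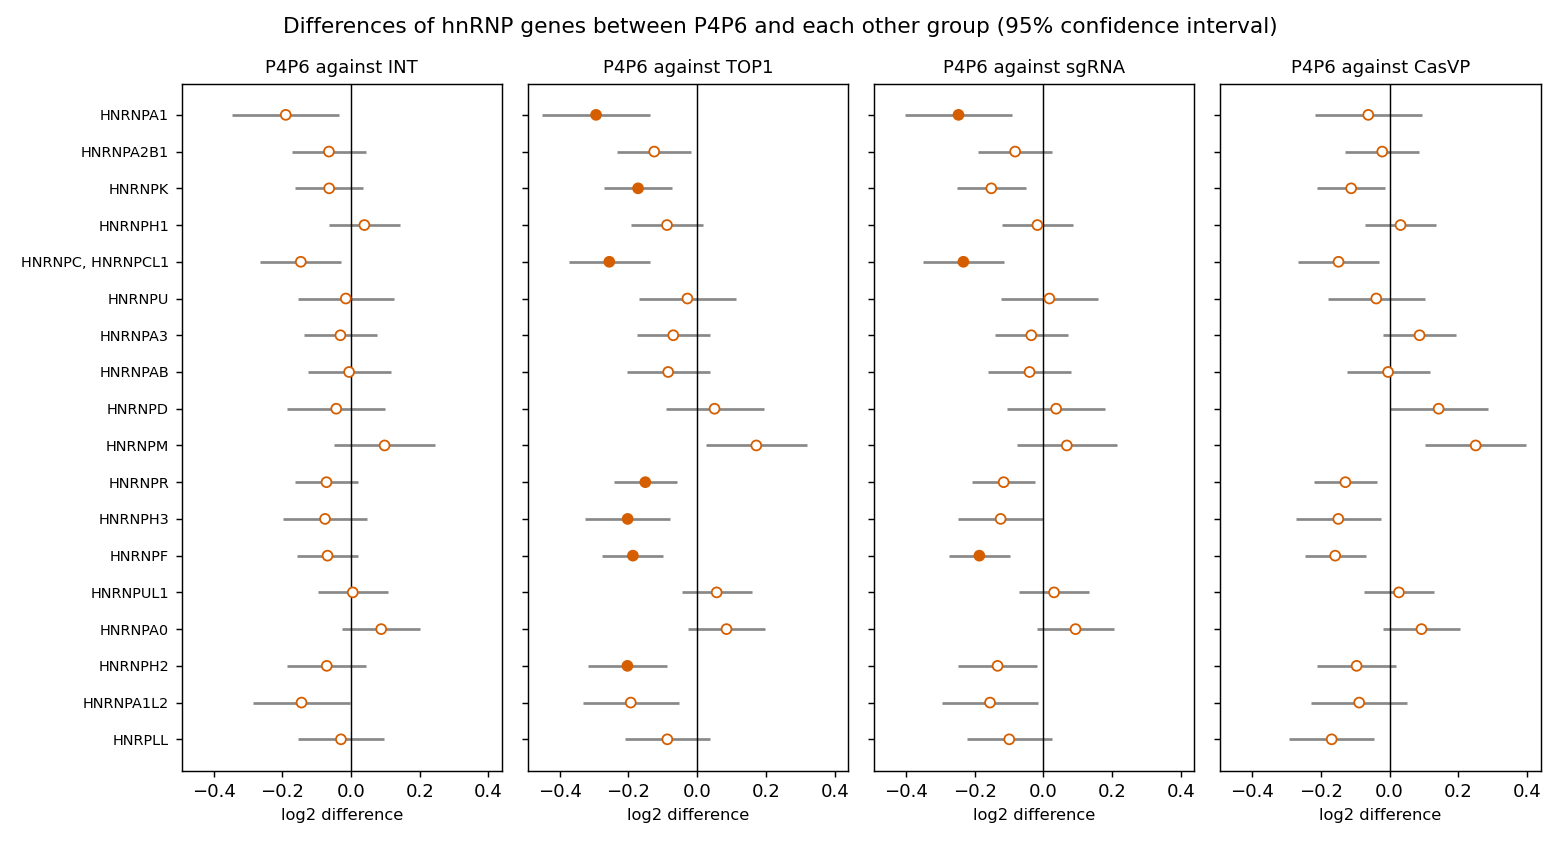
Log2 difference of each tested hnRNP member between P4P6 and INT, TOP1, sgRNA and CasVP (P4P6 minus the other group), as points with 95% confidence intervals, filled where the limma adjusted p was under 0.05. Filled points appear for 7 members against TOP1 and 3 against sgRNA, all below 0, and for 0 members against INT and CasVP; under quantile normalization none of the filled points passed.

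No member passed the test between a guide and the activator alone. Relative to CasVP, 0 of 18 members were called in P4P6, INT, TOP1 or sgRNA by limma, with 0.00864% of features called in P4P6 and in TOP1 and 0.0173% in INT and in sgRNA. At an unadjusted p under 0.05 there were 8 members for P4P6, 5 for INT, 3 for TOP1 and 3 for sgRNA. Over all 11574 tested features the numbers were 2568 for P4P6, 1026 for INT, 1067 for TOP1 and 697 for sgRNA. Among the 759 features averaging at least 100 FPKM they were 367, 103, 129 and 85 in the same order. The median log2 difference of the members was -0.05 in P4P6, 0.00 in INT, 0.08 in TOP1 and 0.04 in sgRNA. P4P6 and TOP1 thus lay on either side of CasVP. This was not particular to the members, as features averaging at least 100 FPKM had medians of -0.12, -0.03, 0.07 and 0.06 in the same order. These comparisons share the CasVP libraries.

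HNRNPM was at 185 and 182 FPKM in P4P6, against 150.3 and 158 FPKM in CasVP, the highest estimate of that contrast (0.25 ± 0.07, SE; interval 0.10 to 0.40; limma adjusted p = 0.0906). HNRPLL was at 19.5 and 18.3 FPKM in P4P6, against 20.9 and 21.8 FPKM in CasVP, the lowest estimate (-0.17 ± 0.06, SE; interval -0.29 to -0.04; limma adjusted p = 0.129). In both genes the groups were separate, yet neither passed. HNRNPF, at 119.8 and 118 FPKM in P4P6 and 134 and 133 FPKM in CasVP, came closest (-0.16 ± 0.04, SE; limma adjusted p = 0.0872). Without P4P6 replicate 0, 1 member was called lower, HNRNPH3. HNRNPA1 overlapped between these groups, with 999 and 955 FPKM in P4P6 and 1047 and 993 FPKM in CasVP.

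For the other guides the ends of the range were as follows. In TOP1 relative to CasVP, HNRNPA1 was highest at 1224 and 1172 FPKM against 1047 and 993 FPKM (0.23 ± 0.07, SE; interval 0.08 to 0.39; limma adjusted p = 0.501) and HNRPLL lowest at 20.6 and 19.7 FPKM against 20.9 and 21.8 FPKM (-0.08 ± 0.06, SE; limma adjusted p = 0.657). In INT, HNRNPD was highest with 209.7 and 189 FPKM, against 177 and 172 FPKM in CasVP (0.19 ± 0.06, SE; limma adjusted p = 0.507), and HNRPLL was lowest with 19.9 and 18.8 FPKM (-0.14 ± 0.06, SE; limma adjusted p = 0.554). In sgRNA, HNRNPA1 was highest (0.19 ± 0.07, SE; limma adjusted p = 0.791) and HNRPLL was lowest (-0.07 ± 0.06, SE; limma adjusted p = 0.837).

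With all 8 guide libraries set against CasVP, 0 members were called by limma, as were 0.0173% of all features. An unadjusted p under 0.05 was reached by 4 members and by 860 of all 11574 features. HNRNPA3 was between 293 and 325 FPKM in the guide libraries, with a median of 305 FPKM, against 285 and 279 FPKM in CasVP, so every guide library was above both CasVP libraries. HNRPLL was between 18.3 and 20.6 FPKM in the guide libraries, with a median of 19.8 FPKM, and every one was below the 20.9 and 21.8 FPKM of CasVP. They were the only members without overlap in this contrast, where 2.14% of all features lay wholly above and 2.68% wholly below. HNRNPM had the highest estimate (0.17 ± 0.05, SE; limma adjusted p = 0.669) and HNRPLL the lowest (-0.11 ± 0.04, SE; limma adjusted p = 0.669).

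**Figure D5:**
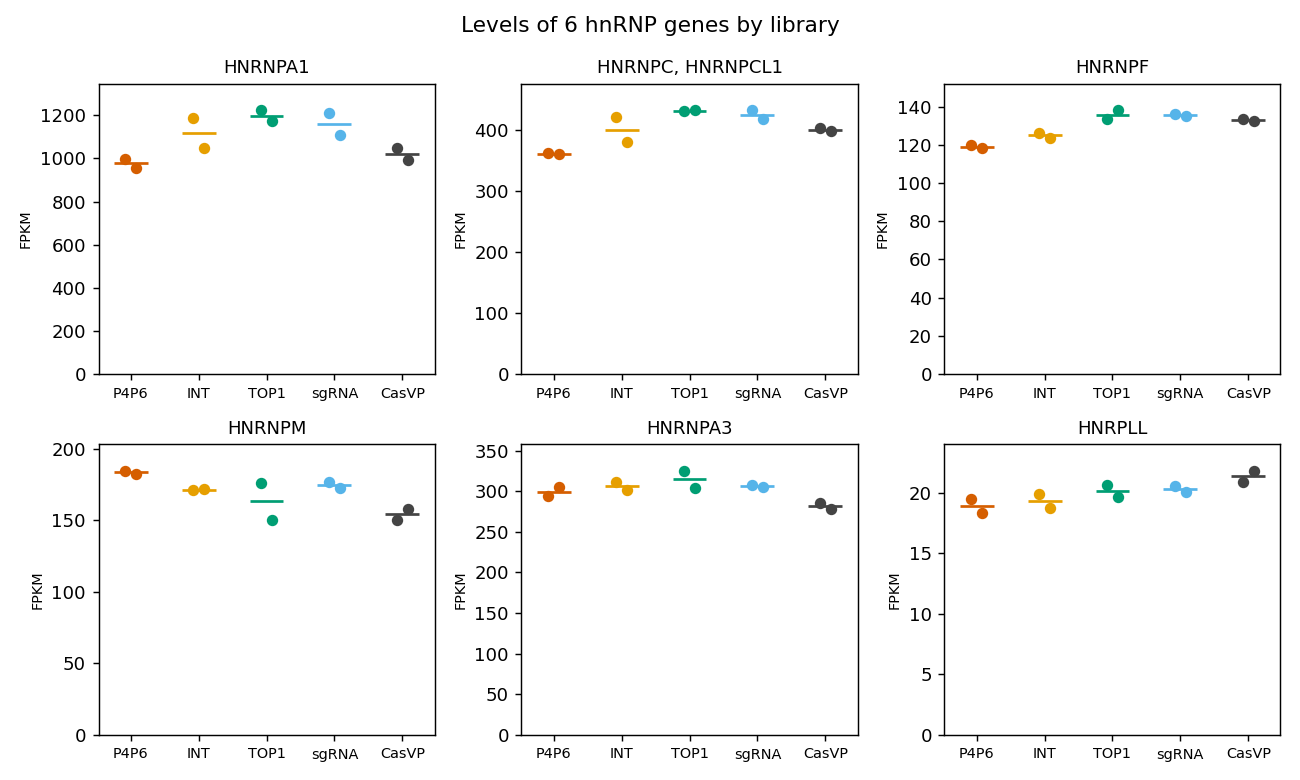
Levels of HNRNPA1, HNRNPC (with HNRNPCL1), HNRNPF, HNRNPM, HNRNPA3 and HNRPLL in FPKM, with 1 point per library and a line at the mean of each group; axes start at 0. HNRNPA1, HNRNPC and HNRNPF are lower in P4P6 than in TOP1 and sgRNA, HNRNPA3 is lowest in CasVP, and HNRPLL is highest in CasVP.

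Between the other guides no member was called by limma. In P4P6 relative to INT 0.00864% of features were called. An unadjusted p under 0.05 was reached by 3 members and by 1297 of all 11574 features. HNRNPA1 had the lowest estimate there, with 999 and 955 FPKM in P4P6 against 1185 and 1047 FPKM in INT (-0.19 ± 0.07, SE; limma adjusted p = 0.413), and HNRNPM the highest (0.10 ± 0.07, SE; limma adjusted p = 0.573). In INT relative to TOP1 0% of features were called. An unadjusted p under 0.05 was reached by 5 members and by 1641 of all 11574 features. HNRNPH2, with 68.4 and 72.5 FPKM in INT against 77.2 and 77.4 FPKM in TOP1, had the lowest estimate (-0.13 ± 0.05, SE; limma adjusted p = 0.309) and HNRNPD the highest (0.09 ± 0.06, SE; limma adjusted p = 0.528).

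In INT relative to sgRNA 0.00864% of features were called. An unadjusted p under 0.05 was reached by 1 member and by 1015 of all 11574 features. HNRNPF was at 126 and 124 FPKM in INT, against 136 and 135 FPKM in sgRNA (-0.12 ± 0.04, SE; limma adjusted p = 0.555), the lowest estimate, and HNRNPD had the highest (0.08 ± 0.06, SE; limma adjusted p = 0.713). In TOP1 relative to sgRNA 0.00864% of features were called. An unadjusted p under 0.05 was reached by 0 members and by 195 of all 11574 features. Estimates there ran from -0.10 ± 0.07 (SE) for HNRNPM to 0.08 ± 0.06 (SE) for HNRNPH3, each with a limma adjusted p of 1.00.

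Members did not vary as a block. Over the 10 libraries, the correlation of log2 levels had a median of 0.35 over the 153 pairs, with 11 pairs above 0.8 and 50 below 0. HNRNPA1 correlated with HNRNPC at 0.90 and HNRNPF with HNRNPK at 0.93. HNRNPM, HNRNPA0 and HNRNPUL1 each ran against most members, with 11, 11 and 12 of their 17 correlations below 0. HNRNPM was most like HNRNPD at 0.70. HNRNPUL1 and HNRNPH2 were the least alike, at -0.74. These values describe 10 libraries from 5 groups, share each library's depth, and carry no test. Within groups, replicate 0 was the higher library for 11 of 18 members in P4P6, 12 in INT, 14 in TOP1, 17 in sgRNA and 14 in CasVP, while over all features the share was 48.9 to 52.5%. Features averaging at least 100 FPKM also ran higher in replicate 0 by their median log2 deviation from each feature's mean. For replicates 0 and 1 this median was -0.100 and -0.122 in P4P6, 0.005 and -0.055 in INT, and 0.082 and 0.071 in TOP1. It was 0.071 and 0.056 in sgRNA, and 0.006 and -0.002 in CasVP.

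The SR genes, which act with or against the hnRNP proteins in exon choice, averaged 1.23 to 274 FPKM, against 20.01 to 1094 FPKM for the 18 tested hnRNP members. SFRS5 (now SRSF5) averaged 274 FPKM, SFRS11 267 FPKM, SFRS3 199 FPKM, SFRS2 192 FPKM and SFRS9 186 FPKM, and the pair of SFRS13A features averaged 1.42 and 1.23 FPKM. In P4P6 relative to TOP1, 3 of 13 SR features fell and 0 rose (23.1% called lower), against 11.4% called lower over all features. All 3 averaged at least 100 FPKM, and 53.9% of the features at that level were called lower. SFRS3, whose protein also acts in mRNA export, was at 175 and 181 FPKM in P4P6, against 219 and 214 FPKM in TOP1 (-0.28 ± 0.05, SE; limma adjusted p = 0.0110). SFRS7 was at 109 and 104 FPKM in P4P6, against 132 and 123 FPKM in TOP1 (-0.25 ± 0.05, SE; limma adjusted p = 0.0112), and SFRS5 was also lower (-0.22 ± 0.06, SE; limma adjusted p = 0.0353). In P4P6 relative to sgRNA, SFRS3 and SFRS7 fell, with log2 differences of -0.22 ± 0.05 and -0.19 ± 0.05 (SE; limma adjusted p = 0.0315 and 0.0354). They made up 15.4% of the 13 features, against 7.17% called lower over all features and 42.6% over features averaging at least 100 FPKM. The median over the 13 features in P4P6 relative to TOP1 was -0.07, against -0.11 over the hnRNP members, and the difference between the sets was not tested. Under quantile normalization 0 SR features were called lower and 1, SFRS9, higher, with a median of -0.02. Other hnRNP-type features lie outside the rule, such as HNRPDL, which averaged 142 FPKM and was lower in P4P6 than in TOP1 (-0.21 ± 0.06, SE; limma adjusted p = 0.0402).

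The remaining splicing machinery was called in both directions in P4P6 relative to TOP1, where 11.4% of all features were called lower and 8.61% higher with a median of -0.01. Of 13 Sm and LSm features, the ring proteins of spliceosomal RNPs, 9 fell and 0 rose with a median log2 difference of -0.20, among them SNRPE (-0.34 ± 0.06, SE; limma adjusted p = 0.0101) and SNRPD1 (-0.29 ± 0.06, SE; limma adjusted p = 0.0123). Of these 9, all but LSM5 and LSM8 averaged over 100 FPKM in both groups. Over all features averaging at least 100 FPKM, 53.9% were called lower, with a median of -0.19. A shift of this list beyond that of other features at its level was not tested. Of 14 factors of nonsense-mediated decay and the exon junction complex, 6 rose and 1 fell with a median of 0.09. UPF1, the helicase at the centre of that decay, rose (0.29 ± 0.05, SE; limma adjusted p = 0.0101), as did SMG1, SMG5, SMG6, CASC3 and the feature C19orf61, while the exon junction subunit MAGOH fell (-0.32 ± 0.05, SE; limma adjusted p = 0.0101). The features that rose averaged 11.5 to 68.7 FPKM in these groups. Under quantile normalization the decay list had the same count of 6 higher and 1 lower, with the same genes and a median of 0.14, while the Sm and LSm list had 1 lower, LSM8, and a median of -0.07.

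Of 15 proteins of the U2 snRNP and branch point, SF1 and SF3A1 rose and SF3B5, SNRPB2, PHF5A and DHX15 fell (median -0.08). Of 16 tri-snRNP proteins, PRPF8 and SART1 rose and PPIH, SNRNP27, NHP2L1 and SNRNP40 fell (median -0.02), and of 6 U1 proteins SNRPC and LUC7L3 fell (median -0.08). Among 15 SR-related regulators SRRM2 rose the most of any gene on these lists (0.43 ± 0.06, SE; limma adjusted p = 0.0101) and SFRS14 rose, while RBM39 and TRA2B fell (median 0.01). Of 9 SR protein kinases CLK1 and SRPK1 fell (median -0.03), of 29 other regulators ELAVL1 rose and PTBP2, HNRPDL and SYNCRIP fell (median -0.06), and of 3 import receptors TNPO1 fell (median -0.01). Under quantile normalization the only feature of these 7 lists called lower was SNRPB2, and 5 U2, 2 tri-snRNP, 3 SR-related and 5 other regulators were called higher, among them SF1, SF3A1, PRPF8, SRRM2, SFRS14 and ELAVL1. In P4P6 relative to sgRNA 7.17% of all features were called lower and 4.33% higher. Of the features averaging at least 100 FPKM, 42.6% were called lower. The list counts were 7 lower of 13 for Sm and LSm proteins and 3 higher with 1 lower of 14 for decay and exon junction factors. Under quantile normalization these counts were 0 for Sm and LSm proteins and 2 higher (SMG5 and UPF1) with 0 lower for decay and exon junction factors, with 0.778% of all features called lower and 2.57% higher. In P4P6 relative to CasVP, 0 features passed on any of these 9 lists by limma. The numbers at an unadjusted p under 0.05 ran from 1 to 6 per list, against 2568 of all 11574 features.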

How the data were processed

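Polyadenylated RNA of 10 libraries in 5 groups of 2 was used as deposited, 1 FPKM value per feature and library, made by the authors from reads with TopHat2 2.0.13 and Cuffdiff 2.2.1 on hg19, per the submitters' processing notes. Which annotation was used, and how libraries were scaled to each other, is not given in the sources used here. FPKM were log2-transformed after adding 1, features averaging at least 1 FPKM were kept (11574), and 11 comparisons were fitted in R 4.3.3 by limma 3.58.1 (intensity trend, all libraries in 1 fit, 5 residual degrees of freedom, two-sided, Benjamini-Hochberg within a comparison, threshold 0.05). The procedure was tested on simulated data, and 19 alternatives were tried. Columns were matched to groups by name and not to the labels' replicate numbers. Members and lists were chosen with earlier results of these data known. Every member averaging at least 1 FPKM is named, with full statistics for members that passed and for the highest and lowest estimate of a comparison. On the 9 lists of splicing genes, members that passed are named. Sequences come from GENCODE 29 (GRCh38) and RefSeq (GRCh38.p14).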

Additional observations from a re-analysis of the deposited data

Results flagged for a closer look

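For 7 hnRNP members the level in the P4P6 group differed from that in another guide group by the limma test between the groups. The values are log2 differences on the log2(FPKM + 1) scale. P4P6 minus TOP1 was -0.29 for HNRNPA1, -0.26 for HNRNPC with HNRNPCL1, -0.20 for HNRNPH2, -0.20 for HNRNPH3, -0.19 for HNRNPF, -0.17 for HNRNPK and -0.15 for HNRNPR. P4P6 minus sgRNA was -0.25 for HNRNPA1, -0.23 for HNRNPC with HNRNPCL1 and -0.19 for HNRNPF. Over 19 alternatives, HNRNPC and HNRNPF passed in 15 each against TOP1, HNRNPA1 and HNRNPH2 in 13, HNRNPK in 11, HNRNPH3 in 9 and HNRNPR in 8. Against sgRNA, HNRNPF passed in 10, HNRNPC in 9 and HNRNPA1 in 6.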

How the results depend on the processing

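The main counts of members called were 7 in P4P6 relative to TOP1, 3 relative to sgRNA and 0 relative to CasVP. Of all tested features, 20%, 11.5% and 0.00864% were called in these comparisons. Except for quantile normalization, given above, the shares of all features under the alternatives are not given here. Changes in the member counts are therefore not set against changes over all features. With no filter on low values they were 4 against TOP1 and 1 against sgRNA, with library weights 4 and 0, and with only the groups compared in the fit 0 and 0; without the intensity trend the count against sgRNA was 0. Under quantile normalization the counts were 4 and 1, all higher, and HNRNPK reversed against TOP1 (log2 difference 0.0056, limma adjusted p = 0.934); the cause was not tested. Leaving out each library in turn gave 0 to 7 against TOP1, 0 to 4 against sgRNA and 0 to 1 against CasVP, where HNRNPH3 was called without P4P6 replicate 0. HNRNPM in TOP1 relative to sgRNA ranged from -0.22 to 0.010 when a library was left out, and reversed without TOP1 replicate 1.

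The replicate block gave 9 members against TOP1, 4 against sgRNA and 1 against CasVP (HNRNPF lower), with the share of all features not given here. The numbers do not pair the libraries by design, and correlations of deviations between same-numbered libraries ran from -0.036 to 0.42 over 10 pairs of groups. The 8 other comparisons stayed at 0 members under all 19 alternatives. Of the estimates for named members over all alternatives, 485 kept direction and side of the threshold, 80 lost the call, 3 gained one and 2 reversed. Precision is limited by 2 libraries per group, and read totals are unknown.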
